A study of Rattus norvegicus with 7 samples.

Results

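Adipogenic genes were taken here as 9 genes chosen by symbol: the transcription factors Pparg, Cebpa, Cebpb and Cebpd, the lipid uptake and transport genes Lpl, Cd36 and Fabp4, the lipid droplet gene Plin2, and the adipokine Adipoq. All 9 were found among the 17147 gene symbols with a value in every library. The cells were rMSCs, mesenchymal stem cells of a male Sprague-Dawley rat aged 6 weeks, and polyadenylated RNA was sequenced 4 h after 20000 cells were seeded. The groups were defined by the surface. PCL was a polycaprolactone film (3 libraries), ISB-P a polyurethane film made with PCL diol and propoxylated isosorbide (3 libraries), and TCP tissue culture plastic (1 library). Both films were 16 mm in diameter and sterilized with ethylene oxide gas, and neither a size nor a sterilization is stated for TCP. No fat-inducing agent is named for any group. The cells appear to come from a single animal, and nothing in the labels says that libraries of a film were separate cultures, so p-values measure the spread between these libraries, which may be technical.

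Adipogenesis, the making of fat cells, starts with Cebpb and Cebpd, which are switched on early and then turn on Pparg and Cebpa. Pparg is the nuclear receptor that drives the fat cell program, and Cebpa and Pparg keep each other expressed. Their targets include the enzyme Lpl, the fatty acid carriers Cd36 and Fabp4, and Adipoq. Marrow mesenchymal stem cells can become fat cells, bone cells or cartilage cells.

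Values were FPKM, fragments relative to transcript length and library size, and the number of reads behind them is unknown. Library sums were 539393 on TCP, between 542921 and 597954 on PCL, and between 590628 and 660124 on ISB-P. Thy1 and Cd44, among the 3 of 9 listed mesenchymal markers with the highest film levels, were high on every surface. Thy1 was at 1210 FPKM on TCP and between 925 and 1056 on the films, and Cd44 was at 343 FPKM on TCP and between 275 and 482 on the films. Endothelial markers were under 1 FPKM in every library for 9 of 9 genes, with Emcn and Cldn5 at 0.

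The members spanned a wide range of levels on the films. Plin2 was highest, with a mean of 404 FPKM over the 6 film libraries, a level above 98.7% of all genes. Cebpb followed at 88.1 FPKM, Fabp4 at 27.2 FPKM and Lpl at 11.8 FPKM. Cebpd at 6.23 FPKM, Cebpa at 5.57 FPKM and Pparg at 4.29 FPKM came next, and the ranges of these 3 neighbours overlapped. Cd36 was at 1.88 FPKM. Adipoq, a hormone made by mature fat cells, was lowest at 0.181 FPKM, above 37.5% of genes. All other neighbours in this order had ranges over the 6 film libraries that did not overlap.

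**Figure D1:**
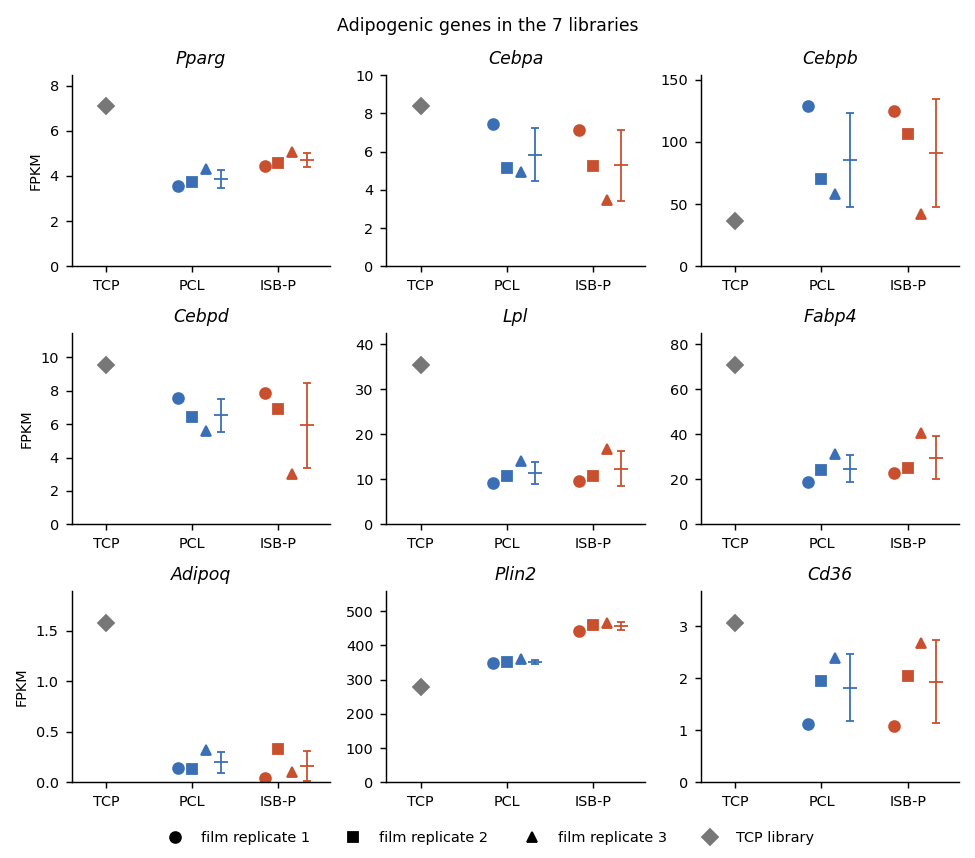
FPKM of the 9 members, 1 panel each with its own axis from 0, in each of the 7 libraries, with bars for the mean ± SD of the 3 libraries of a film and circles, squares and triangles for replicates 1, 2 and 3. The TCP library (diamond) lies above every film library for 7 of 9 members and below them for Cebpb (before rescaling) and Plin2.

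ISB-P against PCL asked whether the isosorbide film changed these genes relative to plain polycaprolactone. The test, limma's moderated test on log2(FPKM + 1), covered 9467 genes that reached 1 FPKM in 3 or more film libraries. Of the members, 8 passed this filter and Adipoq did not. None of the 8 was higher and none lower at an adjusted p under 0.05, where 1.10% of all tested genes were higher and 0.623% lower. At an unadjusted p under 0.05, 1 member was higher, Plin2, and 0 were lower. When the replicate number was kept as a block, 1 of 8 members was higher, again Plin2, against 13.0% of all tested genes, and 0 were lower, against 11.4%. That count for the members is at the level of all genes. The median log2 fold change was 0.07 for the 8 members and 0.02 for all tested genes, and scaling to a common total moved the latter to -0.09.

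Plin2, which coats lipid droplets in most cell types, was at 347, 350.5 and 359 FPKM in PCL replicates 1, 2 and 3, and at 442, 459 and 466 FPKM in the same replicates of ISB-P. The lowest ISB-P library stood above the highest PCL library, and the 3 libraries of each film lay close together. The film means were 352 ± 6.10 on PCL and 456 ± 12.5 on ISB-P (SD, n = 3). The log2 fold change was 0.37 with an SE of 0.10 (95% interval 0.13 to 0.61), and limma's adjusted p was 0.171. With the replicate block the SE was 0.06 and the adjusted p 0.00338. The estimate, 1.29-fold higher on ISB-P, was the same in both fits, and Plin2 passed the threshold in the blocked fit alone. Over the alternatives run, the adjusted p ranged from 0.163 to 0.9995 without the block and from 2.93e-10 to 0.0277 with it. The lowest value came without ISB-P replicate 3, where PCL replicate 3 had no partner and 1 residual degree of freedom per gene was left. Cebpb, at an adjusted p of 0.903 in the blocked limma fit of all film libraries, also passed there, so that value carries little weight. Within replicate numbers ISB-P was 1.27, 1.31 and 1.30 times PCL. Under the 3 rescalings (common total, upper quartile, quantile) the log2 fold change was smaller, at 0.25, 0.30 and 0.24. The blocked adjusted p was then 0.0167, 0.0122 and 0.0277. A two-sided exact permutation test without rescaling gave p = 0.1, the smallest that 3 against 3 libraries can give.

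The first of the RefSeq start sites of Plin2 is shown because Plin2 is the member that passed the threshold in the blocked fit. The letters are the 250 bases before it, on the minus strand of GRCr8, at chr5:106229019-106229268.
Plin2, first start: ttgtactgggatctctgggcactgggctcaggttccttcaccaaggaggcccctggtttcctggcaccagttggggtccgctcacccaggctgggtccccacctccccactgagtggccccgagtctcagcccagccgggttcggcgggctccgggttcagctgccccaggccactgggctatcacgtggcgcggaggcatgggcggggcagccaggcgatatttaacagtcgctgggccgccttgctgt
No searched motif was found in this window, so it holds no capitals. The motifs searched were TTGCNNAA (a C/EBP site), AGGTCA (the half-site of nuclear receptors such as PPAR and RXR), TGACG (a CREB half-site), GAANNTTC (a heat shock element core) and TATAAA, the last on the strand of the gene and the others on both strands. In the window of a second start of Plin2 the script found GAAGCTTC 13 to 6 bases before the start. Of 33469 promoter windows of the same length, 9.22% held TTGCNNAA, 14.1% AGGTCA, 18.2% TGACG, 7.23% GAANNTTC and 8.06% TATAAA. A match is a description of letters and not a bound site.

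Pparg, the receptor itself, was at 3.58, 3.72 and 4.32 FPKM in PCL replicates 1, 2 and 3, and at 4.46, 4.58 and 5.08 FPKM on ISB-P. All 3 ISB-P libraries lay above all 3 PCL libraries, although the gap was small. Its means were 3.87 ± 0.393 and 4.71 ± 0.330 FPKM (SD, n = 3), a log2 fold change of 0.23 with an SE of 0.12. It did not pass the test, with an adjusted p of 0.538 by limma and of 0.0828 with the replicate block. Pparg and Plin2 were the 2 of 8 tested members whose libraries did not overlap with ISB-P higher, as for 8.17% of all tested genes, and 0 of 8 did not overlap with ISB-P lower, as for 9.54%. The second Pparg start is shown because it holds a C/EBP-type match, the only one in the 8 member windows (6 of 9 members were matched by symbol to the promoter table), on the plus strand of GRCr8 at chr4:150154522-150154771, with the match in capitals 174 to 167 bases before the start.
Pparg, second start: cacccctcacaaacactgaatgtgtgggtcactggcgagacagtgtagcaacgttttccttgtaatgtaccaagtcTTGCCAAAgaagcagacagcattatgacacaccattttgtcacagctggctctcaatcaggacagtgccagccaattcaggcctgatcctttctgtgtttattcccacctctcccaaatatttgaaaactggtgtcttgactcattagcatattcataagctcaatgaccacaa
No AGGTCA was found in any of the 8 windows, which cover Pparg, Plin2, Cebpa, Cebpb, Cd36 and Adipoq. Cebpd, Lpl and Fabp4 were not matched.

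**Figure D2:**
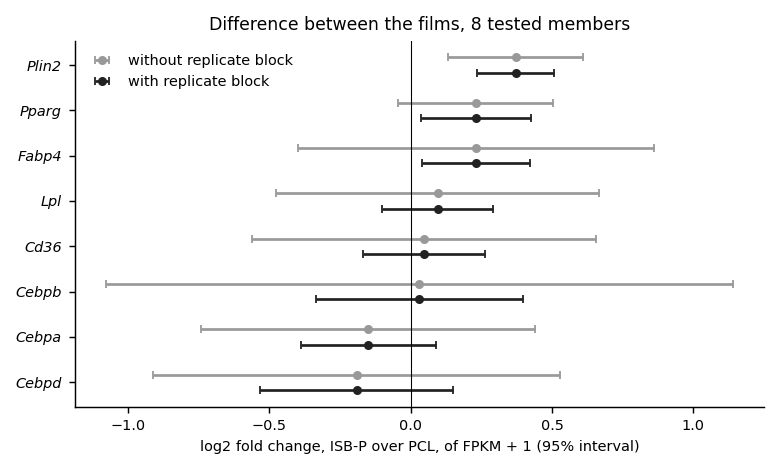
Log2 fold change of the 8 tested members, ISB-P over PCL, with 95% intervals, in the fits without (grey) and with (black) the block on replicate number. The interval of Plin2 lies above 0 in both fits and those of Pparg and Fabp4 in the blocked fit, before adjustment for the number of genes.

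Cebpb, the early factor of the program and a gene of stress and inflammation responses, gave the widest spread between film libraries among the 8 tested members on the log2(FPKM + 1) scale. It was at 128, 70.0 and 57.7 FPKM in PCL replicates 1, 2 and 3 and at 125, 106 and 41.7 FPKM in those of ISB-P. The films overlapped, although ISB-P replicate 3 lay below every PCL library. Within replicate numbers ISB-P was 0.973, 1.51 and 0.723 times PCL. Means were 85.3 ± 37.7 and 90.8 ± 43.6 FPKM (SD, n = 3). The log2 fold change was 0.03 with an interval of -1.08 to 1.14 and an adjusted p of 0.989 by limma, and its sign turned under all 3 rescalings. The window of Cebpb is shown as the member window with the most matches, on the plus strand of GRCr8 at chr3:176816755-176817004, with 3 CREB half-site matches and a TATAAA in capitals.
Cebpb: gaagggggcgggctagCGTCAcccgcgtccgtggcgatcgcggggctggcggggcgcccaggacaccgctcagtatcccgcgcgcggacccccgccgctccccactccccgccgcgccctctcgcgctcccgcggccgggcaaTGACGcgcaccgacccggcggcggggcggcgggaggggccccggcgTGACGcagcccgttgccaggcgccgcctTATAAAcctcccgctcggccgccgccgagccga
The half-site matches end 230, 103 and 57 bases before the start, and TATAAA lies 33 to 28 bases before it. None of these matches overlaps another.

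Cebpd, which acts beside Cebpb early in the program, was at 7.58, 6.41 and 5.58 FPKM on PCL and at 7.83, 6.93 and 3.01 FPKM on ISB-P. Cebpa, which acts later and keeps Pparg expressed, was at 7.44, 5.17 and 4.95 FPKM on PCL and at 7.15, 5.24 and 3.46 FPKM on ISB-P. In both genes the films overlapped. Cebpd differed by a log2 fold change of -0.19 with an SE of 0.30 and an adjusted p of 0.924, and Cebpa by -0.15 with an SE of 0.25 and an adjusted p of 0.930, by limma. With the block the adjusted p was 0.379 for Cebpd and 0.328 for Cebpa.

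Among the uptake genes, Lpl, the enzyme that frees fatty acids from circulating lipoproteins, was at 9.18, 10.8 and 14.0 FPKM on PCL and at 9.53, 10.7 and 16.8 FPKM on ISB-P. Fabp4, a cytoplasmic fatty acid carrier of fat cells and macrophages, was at 19.0, 24.1 and 31.2 FPKM on PCL and at 23.0, 25.2 and 40.6 FPKM on ISB-P. Cd36, a fatty acid receptor of the cell membrane, was at 1.12, 1.94 and 2.39 FPKM on PCL and at 1.08, 2.05 and 2.68 FPKM on ISB-P. All 3 genes overlapped between the films. Their log2 fold changes were 0.09 for Lpl (SE 0.24, adjusted p = 0.951 by limma), 0.23 for Fabp4 (SE 0.27, adjusted p = 0.898) and 0.05 for Cd36 (SE 0.26, adjusted p = 0.973). Fabp4 had an adjusted p of 0.0778 with the block, where Lpl had 0.449 and Cd36 0.742. Adipoq was at 0.145, 0.135 and 0.320 FPKM on PCL and at 0.0469, 0.332 and 0.106 FPKM on ISB-P, with overlapping libraries and an exact permutation p of 0.6.

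The replicate number, which the labels give to 1 library of each film, separated more members than the film did. With film in the model, limma's F test found a difference between replicate numbers for 6 of 8 members at an adjusted p under 0.05, against 58.4% of all tested genes. Film separated fewer of all tested genes too, with 13.0% rising and 11.4% falling from PCL to ISB-P in the blocked fit. A larger share for replicate number than for film was thus not particular to the members. The 3 Cebp genes and the 3 uptake genes went opposite ways. Cebpa, Cebpb and Cebpd were highest in the libraries numbered 1 and lowest in those numbered 3, on both films. Lpl, Fabp4 and Cd36 were lowest in the libraries numbered 1 and highest in those numbered 3, again on both films. The log2 difference, number 3 minus number 1, was -1.35 for Cebpb (adjusted p = 0.00173 by limma), -0.76 for Cebpd (adjusted p = 0.0157) and -0.69 for Cebpa (adjusted p = 0.00564). It was 0.66 for Lpl (adjusted p = 0.00237), 0.74 for Fabp4 (adjusted p = 0.00129) and 0.75 for Cd36 (adjusted p = 0.00211). Pparg (adjusted p = 0.278) and Plin2 (adjusted p = 0.741) did not pass this test. Over all tested genes, 5377 were higher in number 3 and 4090 lower. What the number stands for is not in the labels, and its part in the spread within films was not tested beyond the block.

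**Figure D3:**
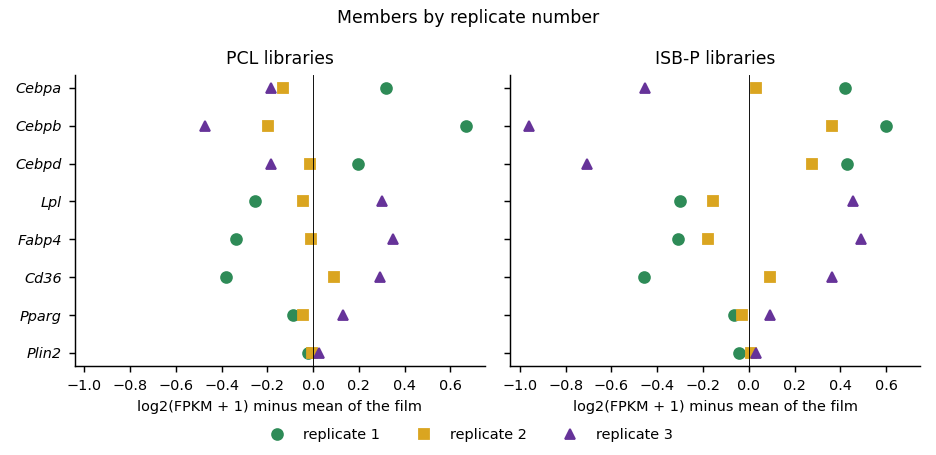
Log2(FPKM + 1) of the 8 tested members minus the mean of its film, for PCL (left) and ISB-P (right), with green circles, golden squares and purple triangles for replicates 1, 2 and 3. Cebpa, Cebpb and Cebpd lie furthest right for replicate 1 and Lpl, Fabp4 and Cd36 for replicate 3 on both films.

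TCP, the culture plastic, is represented by 1 library, so its values have no replicate check and no test was run. No other TCP library was among the samples. Fabp4 was at 71.1 FPKM on TCP, above all 6 film libraries, whose range was 19.0 to 40.6 FPKM. TCP was 2.87 times the PCL mean and 2.40 times the ISB-P mean. Lpl was at 35.5 FPKM on TCP against 9.18 to 16.8 FPKM on the films, 3.14 times the PCL mean and 2.88 times that of ISB-P. These were the 2 tested members more than 2-fold lower on each film than on TCP, on the log2(FPKM + 1) scale, where 3.04% of tested genes were so on PCL and 4.28% on ISB-P. Adipoq stood at 1.58 FPKM on TCP, against at most 0.332 FPKM on the films. No ratio of means is given at such low film values.

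Smaller excesses on TCP were seen for the remaining uptake gene and for most factors. Cd36 was at 3.07 FPKM on TCP, 1.69 times the PCL mean and 1.58 times the ISB-P mean. Pparg was at 7.08 FPKM, 1.83 times PCL and 1.5 times ISB-P. Cebpa was at 8.37 FPKM and Cebpd at 9.56 FPKM, above the highest film libraries at 7.44 and 7.83 FPKM. In all, TCP lay above all 6 film libraries for 6 of 8 tested members, against 25.4% of tested genes, and for Adipoq as well.

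Cebpb and Plin2 were the exceptions, with TCP below all 6 film libraries, as for 29.7% of tested genes. Plin2 was at 278 FPKM on TCP, and the PCL and ISB-P means were 1.27 and 1.64 times that. Cebpb was at 36.1 FPKM on TCP, and the film means were 2.37 and 2.52 times that, although after any of the 3 rescalings TCP lay above ISB-P replicate 3. It was the 1 tested member more than 2-fold higher than TCP on each film, where 5.56% of tested genes were so on PCL and 8.98% on ISB-P. Without PCL replicate 1 the Cebpb log2 ratio of PCL to TCP was 0.81 in place of 1.22 and no member passed 2-fold higher on PCL.

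Markers of macrophages and other white blood cells moved with the TCP library. All 6 tested markers of 12 in the list were above all film libraries on TCP, and their summed level was 152 FPKM on TCP, between 47.6 and 57.0 FPKM on PCL and between 49.0 and 55.2 FPKM on ISB-P. Lyz2 was at 72.9 FPKM on TCP and at most 27.2 FPKM on the films, Cd68 at 15.1 and at most 6.24 FPKM, and Cd163 at 0 everywhere. Macrophages also express Fabp4, Lpl and Cd36. In bulk samples, fewer cells of a type and less RNA per cell cannot be told apart, and the part of these cells in the TCP values was not tested.

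**Figure D4:**
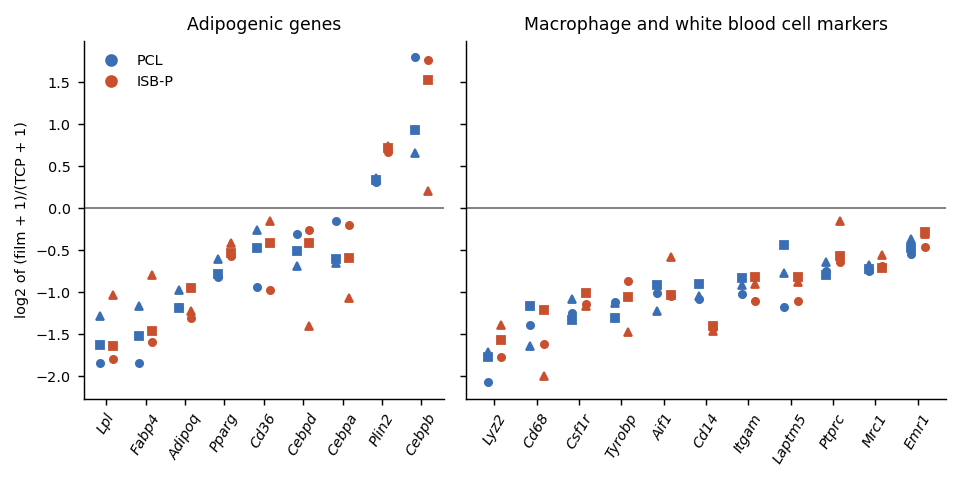
Log2 of (film + 1)/(TCP + 1) in FPKM for the 9 members (left) and 11 markers of macrophages and white blood cells (right; Emr1 is Adgre1), with circles, squares and triangles for replicates 1, 2 and 3 of PCL (blue) and ISB-P (red). Plin2 and, before rescaling, Cebpb lie above 0 in every film library, and the other 7 members and all 11 markers lie below 0.

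Around the members, 132 genes of 7 pathway lists were followed, of which 125 were in the files and 85 were tested. Of these, 4 had higher and 1 had lower values on ISB-P in the unblocked test, and 26 had higher and 9 lower values in the blocked test. The shares of all tested genes were 1.10% and 0.623% without the block and 13.0% and 11.4% with it. The median log2 fold change was 0.07, against 0.02 over all tested genes. The counts without the block were fragile to the choice of libraries and of scaling. Without ISB-P replicate 3 there were 5 higher and 1 lower, and without any other library at most 1 was higher and 0 were lower.

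**Figure D5:**
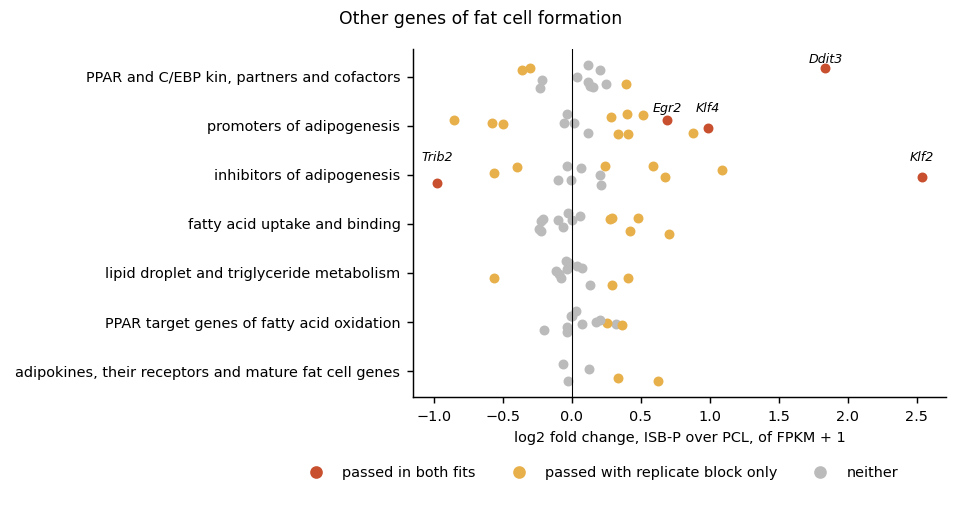
Log2 fold change, ISB-P over PCL, of each of the 85 tested genes in the 7 pathway lists, coloured by whether the adjusted p was under 0.05 in both fits (red), with the replicate block only (yellow) or in neither (grey). The 5 genes past the threshold in both are named, and the promoters and inhibitors of adipogenesis hold 4 of them.

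Among PPAR and C/EBP kin, partners and cofactors, 1 of 13 tested genes was higher and 0 lower (with the block 2 and 2). The gene was Ddit3, a stress-induced C/EBP family member that pairs with other C/EBP proteins and blocks them. It was at 16.9, 12.6 and 15.0 FPKM on PCL and at 69.7, 47.4 and 51.2 FPKM on ISB-P, with TCP at 27.8 FPKM between the films. The log2 fold change was 1.84 with an SE of 0.19 and an adjusted p of 0.00805 by limma. Without PCL replicate 2 that p was 0.0795, without PCL replicate 3 0.0506 and without ISB-P replicate 2 0.0510. With both libraries of a replicate number left out, it was 0.0417 without number 1, 0.548 without number 2 and 0.0806 without number 3. Cebpz, among the highest of the list, had a log2 fold change of 0.25 and passed in neither fit.

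Of the promoters of adipogenesis, 2 of 15 tested genes were higher and 0 lower (with the block 8 and 3). Klf4, a zinc finger factor that induces Cebpb early in the program, was at 12.5, 11.1 and 10.9 FPKM on PCL, at 25.4, 25.2 and 20.8 FPKM on ISB-P and at 63.2 FPKM on TCP. It rose by a log2 fold change of 0.99 (SE 0.13, adjusted p = 0.0224 by limma). Egr2, which acts beside Klf4 on Cebpb, had means of 1.02 ± 0.0412 on PCL and 2.28 ± 0.381 on ISB-P (SD, n = 3) and an adjusted p of 0.0445, with 6.19 FPKM on TCP. Cebpb itself differed between the films by 0.03, as given above. Both calls held without ISB-P replicate 3 but were lost without any other single library, where the adjusted p ranged up to 0.187 for Klf4 and 0.247 for Egr2. Both were also lost on scaling to a common total, at 0.0650 and 0.0932, and under upper quartile scaling, at 0.0837 and 0.115. Under quantile normalization both passed, at 0.0438 and 0.0461. With the block alone, Klf6 was higher (104 ± 27.9 against 196 ± 73.8 FPKM, adjusted p = 2.51e-04) and Stat5a lower (12.4 ± 2.05 against 6.43 ± 1.46 FPKM, adjusted p = 3.65e-04).

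The inhibitors of adipogenesis had 1 of 14 tested genes higher and 1 lower (with the block 5 and 3). The higher one was Klf2, which represses Pparg, at 5.59 ± 1.34 FPKM on PCL and 41.1 ± 21.0 FPKM on ISB-P (SD, n = 3; adjusted p = 0.0445 by limma). On TCP Klf2 was at 67.6 FPKM, above all film libraries. Trib2, a pseudokinase that promotes the degradation of Cebpa protein, was at 5.80, 7.09 and 8.22 FPKM on PCL and at 2.64, 2.86 and 3.75 FPKM on ISB-P. It fell by 0.98 on the log2 scale (SE 0.16, adjusted p = 0.0445), with TCP at 10.9 FPKM. Both calls held without ISB-P replicate 3 and were lost without any other single library, where the adjusted p ranged up to 0.253 for Klf2 and 0.268 for Trib2. The Klf2 call was also lost under the 3 rescalings, at 0.0666, 0.0793 and 0.0501. With no filter on low values the adjusted p was 0.0611 for Klf2 and 0.0629 for Trib2, and with at least 5 FPKM it was 0.0568 for both. With the block, Hes1, Klf7 and Trib3 were also higher on ISB-P, with log2 fold changes of 0.68, 0.59 and 1.09 and adjusted p-values of 0.00159, 0.00220 and 1.48e-04.

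In the lists closest to lipid handling, no gene passed without the block. Fatty acid uptake and binding had 0 of 14 tested genes called, with 1 higher and 0 lower at an unadjusted p under 0.05, and 5 higher with the block. Fabp3, a relative of Fabp4, was at 121 ± 5.95 on PCL against 121 ± 0.952 FPKM on ISB-P (SD, n = 3), and Fabp5 at 147 ± 18.3 against 179 ± 29.9 FPKM. The lipid droplet and triglyceride list had 0 of 12 called, with 1 higher and 1 lower unadjusted, and 2 higher and 1 lower with the block. Bscl2 and Soat1, its highest genes, had log2 fold changes of 0.08 and 0.13, against 0.37 for Plin2. PPAR targets of fatty acid oxidation had 0 of 12 called and 0 at an unadjusted p under 0.05, with 2 higher in the blocked fit, and adipokine and mature fat cell genes had 0 of 5 called and 0 unadjusted, with 2 higher in it. Of the last list Nampt passed with the block alone (116 ± 36.8 against 186 ± 90.3 FPKM, adjusted p = 0.00224), although its libraries overlapped.

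Genes whose pattern was most like a member's over the 7 libraries were sought for the 3 members with the highest levels, among 4802 tested genes whose mean reached 16 FPKM. The libraries share surfaces and replicate numbers, so the coefficients are descriptions. For Plin2 they were Zfand2a and Hspe1 (Pearson r = 0.998 for each) and Adamts1 (0.995). Zfand2a ran from 26.3 FPKM on TCP through 109.8 to 122 FPKM on PCL to between 554 and 619 FPKM on ISB-P, a far wider span than that of Plin2. For Cebpb they were Rpp21 (0.985), Chpf2 (0.982) and Rps2 (0.977), and for Fabp4 Sema3d (0.983), Ctsk (0.982) and Abcb1b (0.982). Sema3d, for example, was at 37.8 FPKM on TCP and between 11.6 and 20.7 FPKM on the films.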

How the data were processed

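Polyadenylated RNA of rMSCs was sequenced by the authors from stranded libraries as paired ends of 100 bases. The deposited values, 1 table per library, were read as FPKM. The submitters' processing notes name bcl2fastq 2.20.0.422, cutadapt 1.18, TopHat2 2.0.13, Cuffdiff 2.2.1 and the build rn5, without roles or order, and the unit rests on Cuffdiff and on the values. No counts are given, so depth is unknown and no counting error or detection floor is stated.

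Groups came from the labels. ISB-P and PCL were compared with limma 3.58.1 in R 4.3.3 (lmFit, eBayes with trend, two-sided) on log2(FPKM + 1), which understates changes of low genes, with Benjamini-Hochberg adjustment over the 9467 genes that reached 1 FPKM in 3 or more film libraries. The study's methods give n = 3 for the sequencing, but 1 TCP library was analysed here, and it stayed outside the fit. The replicate number was a block in a second fit. Deviations of same-numbered libraries from their film means correlated over genes (r = 0.887, 0.431 and 0.867 for numbers 1, 2 and 3), so the numbers were taken to pair the libraries. The fit was tested on simulated data. Alternatives were scalings, pseudocount, filters, TCP in the fit and libraries left out. Fits with block and another choice, and TCP ranges after scaling, were chosen after seeing the data. Named genes were the members, list genes with an adjusted p under 0.05 (over 1.5-fold where with the block only), the 2 highest genes of each list, the 3 highest cell markers and the 3 nearest patterns. Members and lists were chosen with earlier results of these data known. Of the 132 pathway genes, 7 were not analysed here. Results of 2 genes that the naming rule picked are not reported here. Promoters came from RefSeq GRCr8, by symbol. Figures used matplotlib 3.10.9.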

Additional observations from a re-analysis of the deposited data

How the results depend on the processing

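Between the films, the count of members higher went from 0 to 1 with the replicate block, and the block raised the pathway genes higher from 4 to 26 and those lower from 1 to 9. In the blocked fit, quantile normalization raised the members higher from 1 to 2, adding Pparg, and scaling to a common total lowered the pathway genes higher to 17. Leaving out 1 library there gave 1 to 2 members and 17 to 28 pathway genes higher, on 1 residual degree of freedom per gene; the second member was Cebpb, without either library numbered 3. Without the block, the pathway genes higher were 1 under scaling to a common total and under upper quartile scaling, 2 with at least 5 FPKM and 0 to 5 with libraries left out. Those lower were 0 with no filter or with at least 5 FPKM, where more or fewer genes were tested, and 0 to 1 with libraries left out.

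Signs of log2 fold changes turned for members that did not pass. Cebpb was at -0.083 under a common total, -0.039 under upper quartile scaling and -0.083 under quantile normalization, and Lpl and Cd36 were at -0.012 and -0.027 under a common total. With libraries left out, the values ran from -0.36 to 0.076 for Cebpa, -0.27 to 0.51 for Cebpb, -0.41 to 0.16 for Cebpd, -0.13 to 0.25 for Lpl, -0.014 to 0.40 for Fabp4 and -0.14 to 0.28 for Cd36. Members over 2-fold higher on PCL than on TCP numbered 0 to 1 with libraries left out. Under each of the 3 scalings, members with TCP below all film libraries fell to 1. The cause of these changes was not tested. Plin2 and Pparg kept their sign under every alternative run. Depth is unknown, and 3 libraries per film and 1 on TCP limit the precision.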

Other observations

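Some fat cell and fatty acid genes stood apart on the single TCP library; they were chosen after their values were seen, and no test was run. Plin1, which coats the droplets of mature fat cells, was at 3.21 FPKM on TCP and at most 0.777 FPKM on the films. Cfd, the adipokine adipsin, was at 5.07 FPKM on TCP and at most 0.882 FPKM on the films. With Adipoq, these are genes of mature fat cells, and all 3 were too low on the films to be tested there. In their lists, untested genes included, TCP lay above all film libraries for 7 of 14 adipokine and mature fat cell genes. It did so for 8 of 21 lipid droplet and triglyceride genes. Of tested genes alone, TCP was above for 2 of 5 and below for 1 in the adipokine list. In the lipid droplet list it was above for 2 of 12 and below for 6. All tested genes gave 25.4% above and 29.7% below. Cidea, a lipid droplet gene, had 2.28 FPKM on TCP and between 2.88 and 4.21 FPKM on the films.

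Of the tested fatty acid oxidation genes, TCP lay below all film libraries for 5 of 12 and above them for 3, and of the uptake and binding genes below for 4 of 14 and above for 4, where all tested genes gave 29.7% below and 25.4% above. Among single genes, Fabp3, the fatty acid carrier of muscle and heart, was at 32.8 FPKM on TCP and between 114 and 125 FPKM on the films, where Fabp4 was lower than on TCP. Cpt1a, which lets fatty acids into mitochondria, was at 3.78 FPKM on TCP and between 15.8 and 20.6 FPKM on the films. Angptl4, an inhibitor of Lpl, was at 2.17 FPKM on TCP and between 4.01 and 6.67 FPKM on the films.

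Osteoblast markers did not move as a group. Runx2 was at 10.5 FPKM on TCP and between 21.2 and 31.8 FPKM on the films, Sp7 at 15.6 and between 3.29 and 7.94 FPKM, and Alpl at 13.8 and between 6.45 and 9.75 FPKM.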
